A study of Mus musculus with 8 samples.

Results

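The neurotrophin ligand and receptor genes Bdnf, Ntf3, Ntrk2, Ntrk3, Ngfr and Sort1 were followed in nuclear RNA of forebrain excitatory neurons after pilocarpine. These 6 genes were picked by symbol, out of 55471 genes in an exonic count table and 18513 genes in a second table that counts exons and introns apart, and all 6 were found in both. There were 4 libraries of pilocarpine-treated mice (Pilo) and 4 of mock-treated mice (Mock). All animals were C57BL/6J males of 6 to 8 weeks carrying CaMKIIalpha-Cre:SUN1-sfGFP, so the tagged nuclei are those in which the Camk2a promoter had driven Cre, and tagged nuclei were pulled down with an antibody to GFP. Pilo mice received scopolamine methyl nitrate at 1 mg/kg and, 30 min later, pilocarpine, a muscarinic agonist, at 340 mg/kg, and were left for 100 min. Pilo mice entered the study by their seizure behaviour, at Racine scores of 3 to 5, and no such selection is given for Mock. Mock mice received the same scopolamine and then saline. Seizure therefore cannot be told apart from other actions of the drug. The labels do not say whether a library is 1 mouse or a pool, so p-values measure the spread between libraries, which may be technical in part.

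Neurotrophins are secreted growth factors, made as precursors that proteases cut to the mature form. Mature BDNF acts on the receptor tyrosine kinase TrkB (Ntrk2) and NT-3 mainly on TrkC (Ntrk3), while the precursors bind the p75 receptor (Ngfr) together with sortilin (Sort1). In the forebrain, Bdnf is a classical activity-regulated gene of excitatory neurons with several alternative promoters, and TrkB exists in full-length and truncated forms that differ in the kinase domain. The counts are per gene, so neither the Bdnf promoters nor the TrkB forms are separated in what follows.

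Depth lay between 29356788 and 36161448 counts per library in the exonic table, and between 11928054 and 16703475 in the intronic columns of the second table. Levels are CPM, counts scaled to the TMM-adjusted library total. Libraries 2 and 3 of either group carry each other's numbers in the second table. Each second-table column differed by a median of 0.0786% to 0.13% from its closest exonic-table column over 10810 genes, and by at least 8.21% from any other. Group membership is not affected, and replicate numbers are those of the table in question. Markers of the labelled cell type were abundant, with a summed level of 2538 to 3100 CPM over 6 excitatory neuron genes in Pilo and 2270 to 2909 CPM in Mock. Markers of other cells were detected too. Inhibitory neuron genes summed to 156 to 244 CPM in Pilo and 120 to 156 CPM in Mock, and oligodendrocyte genes to 396 to 707 CPM in Pilo and 311 to 420 CPM in Mock. The part of these cells in the results that follow was not tested. In such bulk samples, a change in the number of nuclei of a type and a change in RNA per nucleus cannot be told apart.

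In Pilo against Mock, Bdnf rose in both exons and introns. Ntrk2 showed a different pattern, with a 2.86-fold rise in introns and a much smaller difference in exons. In the main fits, without a replicate block, Ntf3, Ntrk3 and Sort1 did not pass the test in either region. Ngfr did not pass in exons and was not tested in introns. Of the 6 members, 1 was called higher and 0 lower in exons, where 15.6% of the 19176 genes tested were higher and 16.2% lower (edgeR's quasi-likelihood test, adjusted p under 0.05). In introns 5 members passed the filter on low counts, of which 2 were higher and 0 lower, against 19.6% higher and 21.9% lower of 13318 genes. Bdnf and Ntrk2 aside, the members thus gave no calls in the main fits. Member medians of the log2 fold change were 0.17 in exons and 0.18 in introns, beside medians of 0.00 over all genes in both regions. With the replicate number as a block, 4572 genes were higher in exons. Ntrk2 then passed in exons (edgeR adjusted p = 0.00288) and Ntrk3 in introns (edgeR adjusted p = 0.0252).

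**Figure D1:**
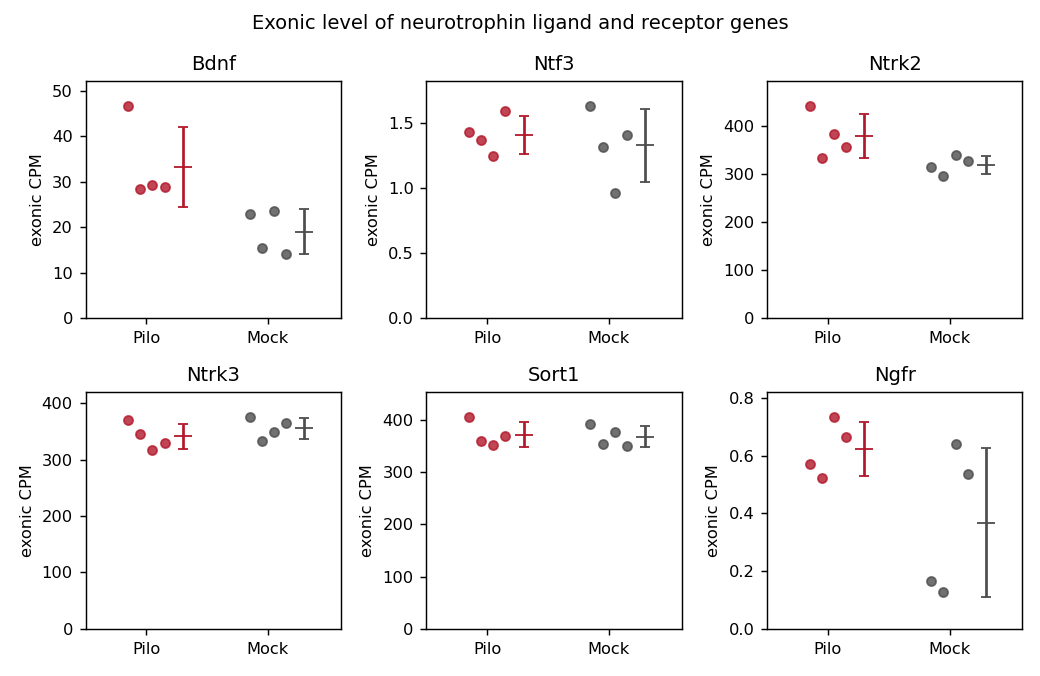
Exonic level of each gene in CPM (vertical axes from 0) in 4 Pilo and 4 Mock libraries, as points, with the mean and SD as a bar beside them. Bdnf is the gene whose groups do not overlap, at 28.5 to 46.6 CPM in Pilo and 14.1 to 23.6 CPM in Mock.

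Among the ligands, Bdnf (ENSMUSG00000048482, GRCm38 chromosome 2, 109674700 to 109727007, plus strand) encodes brain-derived neurotrophic factor. Its exonic level was 46.6, 28.5, 29.2 and 28.8 CPM in Pilo replicates 1 to 4, against 22.9, 15.4, 23.6 and 14.1 CPM in Mock replicates 1 to 4. The groups did not overlap, and Pilo replicate 1 stood well above the other Pilo libraries, which lay within 1 CPM of each other. The mean was 33.2 ± 8.88 CPM in Pilo and 19.0 ± 4.92 CPM in Mock (SD, n = 4 each). The edgeR estimate was a 1.75-fold rise, or 0.81 on the log2 scale (SE 0.21, adjusted p = 0.0169). Without Pilo replicate 1 the change was 0.60 (SE 0.17, adjusted p = 0.0210), and with any 1 library left out the adjusted p reached at most 0.0489. The call was lost with no filter on low counts (adjusted p = 0.102). With the replicate number as a block the change was 0.80 (SE 0.11, edgeR adjusted p = 7.52e-05).

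Bdnf introns were higher in Pilo too. They held 395, 219, 223 and 234 counts in Pilo, against 228, 271, 168 and 148 in Mock, or 28.3, 18.8, 17.6 and 19.5 CPM in Pilo, against 16.3, 15.8, 12.2 and 10.3 CPM in Mock. Again Pilo replicate 1 was the highest and the groups did not overlap. The intronic log2 fold change was 0.63 (SE 0.18, adjusted p = 0.0119), and its difference from the exonic change was -0.16 (SE 0.09, adjusted p = 0.219), which did not pass the test. With the replicate number as a block the intronic change was 0.62 (SE 0.12, edgeR adjusted p = 0.00031). The difference again did not pass (-0.16, edgeR adjusted p = 0.179). The intronic rise was not called when introns were scaled by the exonic library sizes (0.38, adjusted p = 0.102), which set the median change of all genes to -0.25. Under that scaling the difference from the exonic change passed (-0.40, adjusted p = 0.00338).

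Bdnf has 11 annotated transcripts, all protein-coding, in GENCODE vM21. RefSeq (GRCm38.p6) gives 7 promoter windows for it, each from 250 bases before to 50 bases after a transcript start. The windows were searched on both strands for the cAMP response element TGACGTCA, its core TGACG, the AP-1 site TGANTCA and the E-box CACGTG. The full element contains the core. These are the letters bound by CREB, AP-1 and basic helix-loop-helix factors, families induced or activated by neuronal activity. In the order of the gene, 1 AP-1 match lies in the second window, and its pattern reads the same on both strands. The third window holds 1 core, on the opposite strand. Both windows are shown here with the matched letters in capitals.
Bdnf window 2, chr2:109676782-109677081, plus strand: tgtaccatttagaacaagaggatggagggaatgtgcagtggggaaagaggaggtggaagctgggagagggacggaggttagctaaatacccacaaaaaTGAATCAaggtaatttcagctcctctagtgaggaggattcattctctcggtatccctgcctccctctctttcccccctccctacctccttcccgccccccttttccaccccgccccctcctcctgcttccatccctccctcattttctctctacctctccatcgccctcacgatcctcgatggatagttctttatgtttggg
Bdnf window 3, chr2:109692186-109692485, plus strand: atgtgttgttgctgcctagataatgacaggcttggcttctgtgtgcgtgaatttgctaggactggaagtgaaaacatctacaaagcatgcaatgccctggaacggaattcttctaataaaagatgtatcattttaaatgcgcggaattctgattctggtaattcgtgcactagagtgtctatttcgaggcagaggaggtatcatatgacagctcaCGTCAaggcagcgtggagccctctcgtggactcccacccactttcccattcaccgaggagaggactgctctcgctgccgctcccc
Of all 32851 RefSeq windows, 7.81% hold the AP-1 letters, 20.8% the core, 1.79% the full element and 7.15% the E-box. A match describes these letters and not a bound site. Which of the 7 starts gave the additional Bdnf reads was not tested, since the counts join them.

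The antisense gene Gm45346 shares 896 of its 1273 exonic bases with Bdnf. It held 6 to 23 counts per library, beside 421 to 1630 exonic counts of Bdnf. How reads in the shared bases were counted is not given, so their part in the Bdnf counts was not tested. The 5 genes whose exonic profile was most like that of Bdnf, by the root mean square difference of mean-centred log2 CPM over the 8 libraries and among 12858 genes, were Unc5c, a netrin receptor (0.15), Pcsk1, a prohormone convertase (0.16), Plcxd2 (0.18), Cdyl2 (0.19) and Slc5a3, an inositol transporter (0.19). Their exonic log2 fold changes lay between 0.57 for Slc5a3 and 1.05 for Pcsk1, and this likeness is a description of these 8 libraries.

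Ntf3 (ENSMUSG00000049107, chromosome 6, 126101412 to 126166910, minus strand), which encodes neurotrophin-3, was scarce in this RNA. Its exons held 50, 42, 39 and 48 counts in Pilo, against 49, 41, 36 and 42 in Mock, or 1.41 ± 0.14 CPM in Pilo and 1.33 ± 0.28 CPM in Mock (SD, n = 4 each). The groups overlapped, and the log2 fold change was 0.09 (SE 0.22, adjusted p = 0.788). Its introns held 61, 44, 55 and 39 counts in Pilo, against 66, 77, 75 and 96 in Mock. Every Pilo library was thus below every Mock library in intronic CPM, at 3.25 to 4.37 CPM in Pilo and 4.50 to 6.68 CPM in Mock, yet the log2 fold change of -0.43 (SE 0.20) did not pass over all genes (adjusted p = 0.101). It passed when introns were scaled by the exonic library sizes (-0.68, adjusted p = 0.0153). The difference from the exonic change, -0.50 (SE 0.22, adjusted p = 0.115), did not pass, and under the same scaling it did (-0.75, adjusted p = 0.0164). In exonic profile Rilp (0.09), Tarbp2 (0.09) and Wdr90 (0.09) were nearest to Ntf3.

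Among the receptors, Ntrk2 (ENSMUSG00000055254, chromosome 13, 58806569 to 59133970, plus strand) encodes TrkB, the BDNF receptor. Its introns held 5014, 4266, 5711 and 6221 counts in Pilo, against 1913, 2408, 1747 and 2722 in Mock. In CPM these were 359, 365, 452 and 519 in Pilo, against 137, 141, 127 and 189 in Mock, so the lowest Pilo library stood far above the highest Mock library. The intronic log2 fold change was 1.51 (SE 0.14, adjusted p = 2.15e-06), and of 13318 genes tested 148, or 1.11%, had a larger one. Across the 8 fits with 1 library left out it lay between 1.40 and 1.65, and it was 1.26 with introns scaled by the exonic library sizes.

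**Figure D2:**
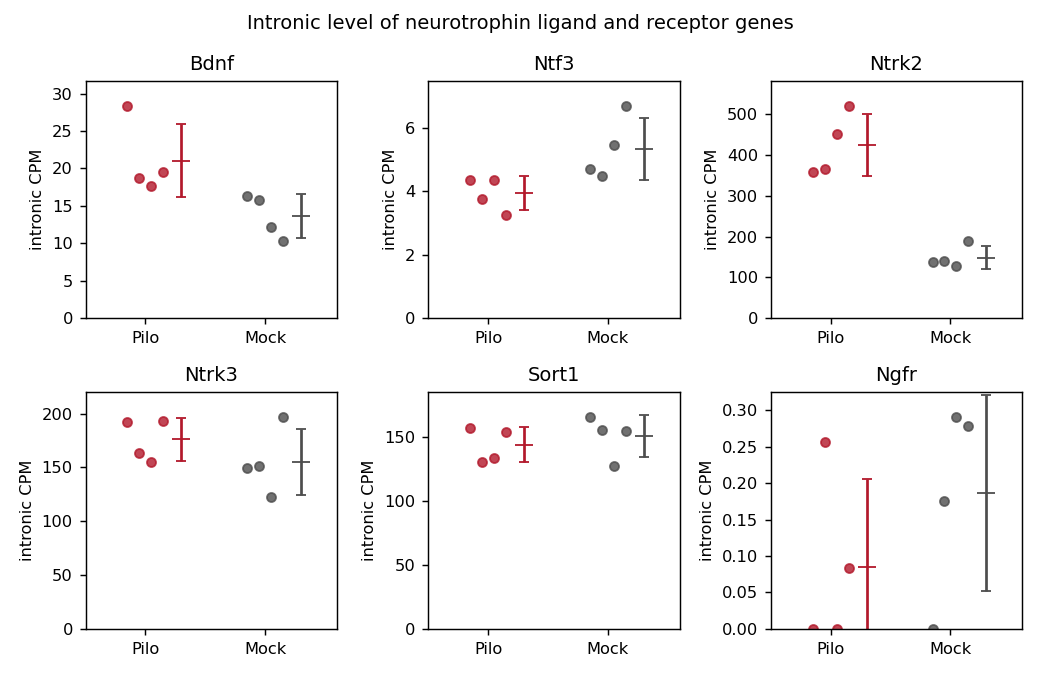
Intronic level of each gene in CPM (vertical axes from 0) in 4 Pilo and 4 Mock libraries, as points, with the mean and SD beside them. Ntrk2 lies at 359 to 519 CPM in Pilo and 127 to 189 CPM in Mock, while Ngfr rests on 0 to 4 counts per library.

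Ntrk2 exons differed far less. Their level was 441, 335, 384 and 356 CPM in Pilo, against 314, 297, 340 and 327 CPM in Mock. The groups overlapped, since Pilo replicate 2 lay below Mock replicate 3. The mean was 379 ± 46.2 CPM in Pilo and 319 ± 18.1 CPM in Mock (SD, n = 4 each). The edgeR estimate of 0.25 on the log2 scale (SE 0.09) did not pass (adjusted p = 0.0562). With the replicate number as a block it passed (0.24, SE 0.06, adjusted p = 0.00288). With RLE factors, with DESeq2 or with no filter it passed as well (adjusted p = 0.0481, 0.0267 and 0.0488), and likewise without Pilo replicate 2 or Mock replicate 3 (adjusted p = 0.0271 and 0.0413), at log2 fold changes between 0.24 and 0.31.

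The intronic and exonic changes of Ntrk2 were set against each other in 1 model over both regions. The intronic change was larger by 1.30 on the log2 scale (SE 0.18, adjusted p = 0.000613), and 39 of 13047 genes had a larger difference. Among the 5 members in this model Ntrk2 was the 1 call, higher in introns, with 0 lower, against 12.8% of genes higher and 13.5% lower. The intronic share of Ntrk2 counts was 24.5%, 26.2%, 35.8% and 36.7% in Pilo, against 16.8%, 15.9%, 15.9% and 21.9% in Mock. The highest Mock share, in replicate 4, was still below the lowest Pilo share. Over all genes together the share went the other way, at 29.2% to 30.6% in Pilo and 31.9% to 33.7% in Mock. The mean share was also lower in Pilo for Bdnf (20.1%, against 25.1% in Mock) and Ntf3 (52.4%, against 64.9% in Mock), without overlap of the groups. The shares of Sort1 and Ntrk3 overlapped between the groups. No test was made on the shares.

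**Figure D3:**
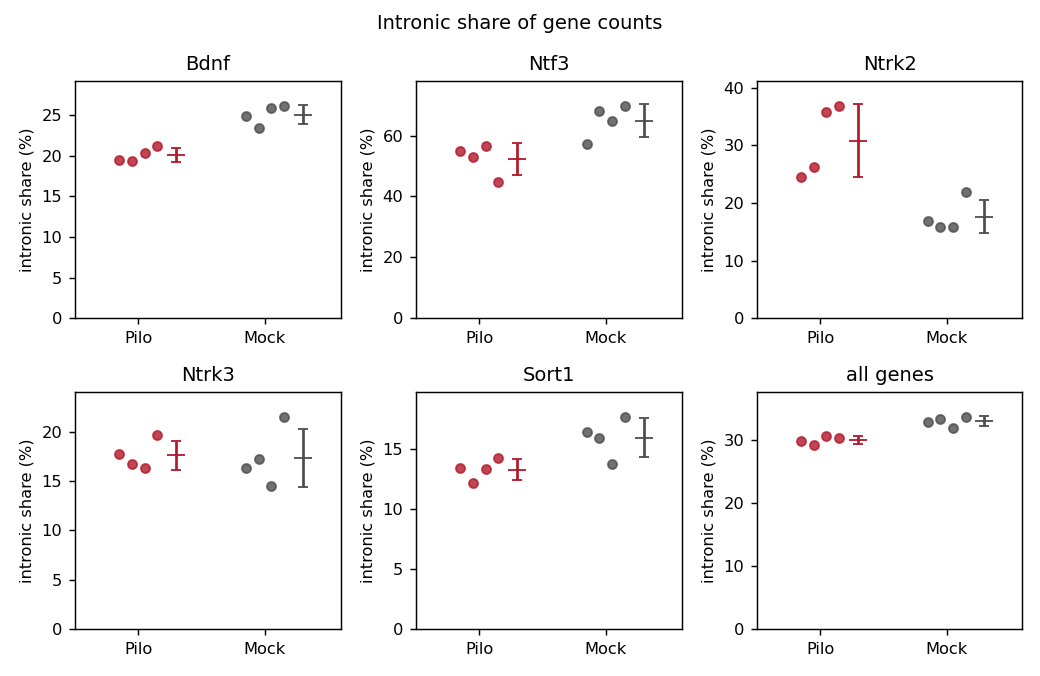
Intronic counts as a percentage of intronic plus exonic counts (vertical axes from 0) for 5 genes and for all genes summed, in 4 Pilo and 4 Mock libraries, with the mean and SD beside the points. Ntrk2 averaged 30.8% in Pilo and 17.6% in Mock, whereas all genes averaged 30.0% in Pilo and 33.0% in Mock.

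The single RefSeq promoter window of Ntrk2 holds none of the 4 motifs searched. It is printed because Ntrk2 has the largest intronic change of the members.
Ntrk2 window, chr13:58806319-58806618, plus strand: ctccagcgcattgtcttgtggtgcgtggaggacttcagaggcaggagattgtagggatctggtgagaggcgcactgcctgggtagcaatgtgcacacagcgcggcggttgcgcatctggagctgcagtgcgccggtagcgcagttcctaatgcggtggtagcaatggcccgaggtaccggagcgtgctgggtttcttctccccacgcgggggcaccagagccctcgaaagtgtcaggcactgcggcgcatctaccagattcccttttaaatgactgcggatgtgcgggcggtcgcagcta
The gene body holds 308.1 kb of intron and 19.3 kb of merged exon. Other genes annotated inside it held at most 12 exonic counts per library, so reads of those annotated exons are few beside the intronic counts. Ntrk2 has 10 annotated transcripts, 7 of them protein-coding, and the intronic counts do not say where along the gene the additional reads lie. The 3 genes with the exonic profile most like that of Ntrk2 were Nucks1 (0.02), Syt12, a synaptotagmin (0.04), and Myo5a, a myosin motor (0.05).

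Truncated TrkB is known from astrocytes, and 6 astrocyte genes summed to 122 to 315 CPM in Pilo and 118 to 243 CPM in Mock, with none at 0. In exons 0 of the 6 passed the test, where 15.6% of all genes were higher and 16.2% lower. In introns 2 were higher and 0 lower, against 19.6% and 21.9% of all genes. These were Gfap and Sox9 (1.55 and 1.23, adjusted p = 0.00247 and 0.00627). A larger intronic than exonic change was called in 4 of the 6 and a smaller one in 1, Gja1, against 12.8% and 13.5% of all genes. The part of astrocyte nuclei in the Ntrk2 result was not tested.

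Ntrk3 (ENSMUSG00000059146, chromosome 7, 78175959 to 78738012, minus strand) encodes TrkC, the receptor of neurotrophin-3. Its exonic level was 371, 346, 317 and 330 CPM in Pilo, against 375, 334, 349 and 365 CPM in Mock, with overlapping groups. The log2 fold change was -0.06 (SE 0.08, adjusted p = 0.599). Its introns stood at 192, 163, 155 and 193 CPM in Pilo, against 149, 152, 123 and 197 CPM in Mock, where Mock replicate 4 was the highest library of all. The intronic change of 0.18 (SE 0.13, adjusted p = 0.284) and its difference from the exonic change, 0.28 (SE 0.11, adjusted p = 0.0766), did not pass. With the replicate number as a block both passed (adjusted p = 0.0252 and 0.000363), and both also passed without Mock replicate 4 (0.32 and 0.39, adjusted p = 0.0471 and 0.00928). Without Pilo replicate 3 the difference alone passed (0.34, adjusted p = 0.0495). Scaled by the exonic library sizes, the intronic change of Ntrk3 turned to -0.07 (adjusted p = 0.706). The antisense gene Gm9885 lies within the Ntrk3 gene body and held 106 to 172 counts. Bptf, a chromatin remodelling factor (0.03), and Nono (0.04) were among the nearest to Ntrk3 in exonic profile.

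Sort1 (ENSMUSG00000068747, chromosome 3, 108284082 to 108361511, plus strand) encodes sortilin, a sorting receptor that binds proneurotrophins. Its exonic level was 405, 359, 353 and 369 CPM in Pilo, against 392, 353, 377 and 349 CPM in Mock. The groups overlapped nearly fully, and the log2 fold change was 0.01 (SE 0.08, adjusted p = 0.912). Its introns averaged 144 ± 13.7 CPM in Pilo and 151 ± 16.4 CPM in Mock (SD, n = 4 each), and the change of -0.07 (SE 0.11) did not pass (adjusted p = 0.634). Scaled by the exonic library sizes, it was called at -0.32 (adjusted p = 0.0394), as was its difference from the exonic change, at -0.30 (adjusted p = 0.0169). Approximate intervals of about 2 SE around the exonic log2 fold changes ran from -0.14 to 0.17 for Sort1 and from -0.21 to 0.09 for Ntrk3, so a larger exonic change of either lies outside them. The antisense gene Gm12523 shares 338 exonic bases with Sort1 and held 9 to 28 counts. Prkar1a, a regulatory subunit of protein kinase A (0.02), Abi2 (0.03) and Esyt2 (0.03) were nearest to Sort1 in exonic profile.

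Ngfr (ENSMUSG00000000120, chromosome 11, 95568818 to 95587735, minus strand), which encodes the p75 receptor, was near the lower limit of these libraries. Its exons held 20, 16, 23 and 20 counts in Pilo, against 5, 4, 24 and 16 in Mock. The low values are Mock replicates 1 and 2, and Mock replicate 3 was the highest of the 8 libraries in counts. The log2 fold change of 0.73 had an SE of 0.44 (adjusted p = 0.225). Its introns held 0, 3, 0 and 1 counts in Pilo, against 0, 3, 4 and 4 in Mock, and were left out of the intronic test by the filter. In the forebrain Ngfr is best known from cholinergic neurons, whose 4 marker genes summed to 3.66 to 5.40 CPM in Pilo and 3.62 to 5.67 CPM in Mock. Hk2, a hexokinase (0.30), Opalin, an oligodendrocyte gene (0.37), and Hbb-bs, a globin (0.40), were nearest to Ngfr in exonic profile, at larger differences than for the other members. The search took only genes with a mean count of at least 50, above every Ngfr count. The part of counting error in these differences was not tested.

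**Figure D4:**
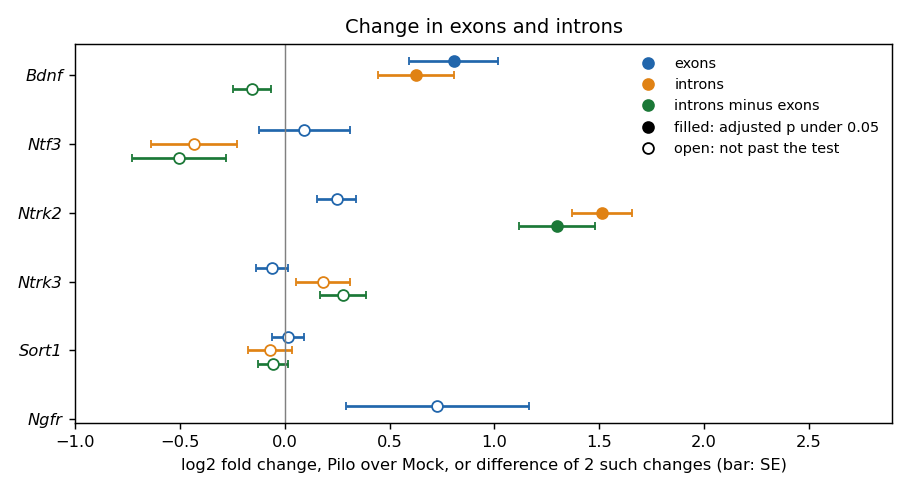
Log2 fold change of Pilo over Mock in exons and in introns, and the difference between the 2 changes, for each gene, with the SE as a bar (filled points pass an adjusted p of 0.05). Bdnf rises in both regions, while Ntrk2 stands at 1.51 in introns and 0.25 in exons.

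Levels of different genes were compared per kilobase of merged exon. Sort1 was the highest at 49.1 ± 3.09 CPM per kb in Pilo and 48.6 ± 2.69 in Mock, followed by Ntrk2 at 19.7 ± 2.39 in Pilo and 16.6 ± 0.94 in Mock. Ntrk3 stood at 11.3 ± 0.76 in Pilo and 11.8 ± 0.61 in Mock, and Bdnf at 5.35 ± 1.43 in Pilo and 3.06 ± 0.79 in Mock. Ntf3 reached 0.822 ± 0.084 in Pilo and 0.774 ± 0.162 in Mock, and Ngfr 0.181 ± 0.027 in Pilo and 0.107 ± 0.075 in Mock (SD, n = 4 each). Within each group no neighbours in this order overlapped, and the order was the same with the longest transcript as the length. Per kilobase of intron, with lengths from GENCODE, the order of means differed in that Bdnf and Ntrk3 changed places. The intronic counts are per Entrez gene, and RefSeq gives Ntrk3 a shorter span. It runs from 78179986 to 78581034, against 78175959 to 78738012 in GENCODE. The Ntrk3 value may therefore be too low, and its place beside Bdnf is not settled. In Pilo Sort1 (2.06) was followed by Ntrk2 (1.38), Bdnf (0.457), Ntrk3 (0.331) and Ntf3 (0.062). In Mock Sort1 (2.16) and Ntrk2 (0.481) led, while Bdnf (0.296) and Ntrk3 (0.292) overlapped in range.

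**Figure D5:**
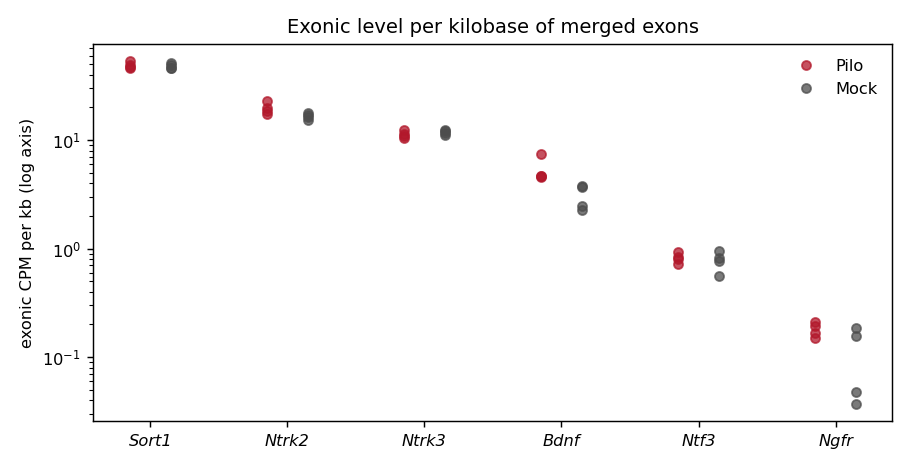
Exonic CPM per kilobase of merged exon (log axis) of the 6 genes in Pilo and Mock libraries, each point 1 library. Sort1 lies at 46.1 to 53.5 and Ngfr at 0.037 to 0.213, and the genes between them do not overlap within a group.

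Gene lists around the members were read against all genes tested in exons, of which 15.6% were higher and 16.2% lower, with a median of 0.00. Of 8 further genes of the family and of the sortilin relatives, 7 were tested in exons, where 1 was higher and 0 lower, a share near that of all genes. Sorl1, a sortilin-related sorting receptor, rose by 0.31 (SE 0.09, adjusted p = 0.0184), a call lost without Mock replicate 2 (0.28, adjusted p = 0.0574), and its introns rose by 0.45 (adjusted p = 0.00226). In introns 2 of 5 tested genes of this list were higher and 0 lower, against 19.6% and 21.9% of all genes, and 1 was higher without Pilo replicate 2 or 4 or without Mock replicate 2, 3 or 4. Scaled by the exonic library sizes, 0 of the 5 genes of this list tested in introns were called. Under that scaling 1114 of 13318 genes were higher and 5173 lower. Ntf5, neurotrophin-4, with at most 15 counts, and Sorcs2, a receptor of proneurotrophins, had changes of -0.26 and -0.08 (adjusted p = 0.721 and 0.715).

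Of 14 listed genes that process and release proneurotrophins, 12 were tested. In exons 7 were higher and 0 lower, with a median of 0.46, against 15.6% higher and 16.2% lower of all genes. Plat, tissue plasminogen activator, rose by 0.83 (SE 0.09), Furin, a proprotein convertase, by 0.88 (SE 0.10), Cpe, carboxypeptidase E, by 0.55 (SE 0.09) and Pcsk5, another convertase, by 0.57 (SE 0.11), with edgeR adjusted p values from 2.41e-05 to 0.0013. The other calls included Pcsk1 and Cadps2. With the replicate block, without Pilo replicate 1, with either other filter and with the second table's exonic counts, 1 gene of the list was lower. A larger intronic than exonic change was called in 3 of 11 genes tested and a smaller one in 0, against 12.8% and 13.5% of all genes. Scaled by the exonic library sizes, 2 had a larger and 3 a smaller one. The 3 genes of the main fit were Cpe, Pcsk1 and Pcsk2, picked for this with their values seen. Pcsk2 had the smallest difference of these, 0.26 (edgeR adjusted p = 0.0446). Cpe introns rose by 1.82 (adjusted p = 5.49e-09), 1.29 more than its exons in the model over both regions (adjusted p = 4.28e-06), and Pcsk1 introns by 1.72 (adjusted p = 0.000971), a difference of 0.75 (adjusted p = 0.00053).

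Of 39 adaptors and signalling genes downstream of the Trk receptors, 13 were higher and 5 lower in exons, with a median of 0.13, against 15.6% higher and 16.2% lower of all genes. The number lower was 3 without Pilo replicate 1 or Mock replicate 4 and 2 without Mock replicate 2. Irs2, an insulin receptor substrate, rose by 1.76 (SE 0.09) and Shc4, a Shc adaptor, by 1.13 (SE 0.13), while Sh2b1, an SH2 adaptor, fell by 0.52 (SE 0.08, adjusted p = 0.000375). Irs1, named after its values were seen, did not differ past the test in exons (0.01, adjusted p = 0.971) but rose by 1.04 in introns (adjusted p = 0.000726). Of 16 genes of Trk turnover and recycling, 5 were higher and 0 lower, with a median of 0.18, beside the same 15.6% and 16.2% of all genes. With the replicate block 11 were higher and 1 lower, where 4572 of all genes were higher, against 2994 without it. Rab11a, a GTPase of recycling endosomes, rose by 0.75 (SE 0.09), Islr2 by 0.59 (SE 0.08), Usp36, a deubiquitinase, by 0.67 (SE 0.12) and Slitrk5, a synaptic adhesion protein, by 0.33 (SE 0.10, adjusted p = 0.0203). The Slitrk5 call was lost without Pilo replicate 1 or Mock replicate 2 or 4 (adjusted p = 0.0514, 0.0659 and 0.0615), and without Mock replicate 4 the list had 3 higher.

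Of 16 partners and effectors of the p75 receptor, 6 were higher and 3 lower in exons, with a median of 0.06, against 15.6% higher and 16.2% lower of all genes. Without Pilo replicate 1 there were 3 higher and 4 lower. Arhgdia, a GDP dissociation inhibitor of small GTPases, rose by 0.48 (SE 0.07) and Bex3, a p75-associated protein, by 0.48 (SE 0.07). Traf6, a ubiquitin ligase adaptor, fell by 0.96 (SE 0.14, adjusted p = 0.000232) in exons, and its intronic log2 fold change was -1.18 (adjusted p = 3.95e-05). Rtn4r, the Nogo receptor and a p75 co-receptor, named after its values were seen, fell by 0.23 in exons (adjusted p = 0.0480), and its intronic log2 fold change was -1.80 (adjusted p = 1.09e-07).

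Factors reported to act on Bdnf promoters were tested as well. Of 15, 5 were higher and 0 lower in exons, with a median of 0.17, against 15.6% higher and 16.2% lower of all genes. With the replicate block 8 were higher, where 4572 of all genes were higher, against 2994 without it. In introns, without the block, 4 were higher and 3 lower, with a median of -0.13, against 19.6% and 21.9% of all genes. Each number lay between 2 and 4 with 1 library left out. A larger intronic than exonic change was called in 2 and a smaller one in 5, with a median of -0.11, against 12.8% and 13.5% of all genes. With 1 library left out these were 1 to 2 and 3 to 6. Egr1 and Npas4, both immediate early factors, rose by 2.09 (SE 0.32) and 2.06 (SE 0.27), Bhlhe40, a repressor of the helix-loop-helix family, by 1.17 (SE 0.07) and Mef2d, an activity-regulated MADS box factor, by 0.52 (SE 0.10, adjusted p = 0.00217). Nfkb1 was the remaining call (0.34, adjusted p = 0.00735). Creb1 did not pass, at -0.06 (SE 0.11, adjusted p = 0.704).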

How the data were processed

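Raw read counts were deposited by the authors in 2 tables, of exons per Ensembl gene, and of exons and introns apart per Entrez gene. Per the submitters' processing notes, edgeR, R 4.1.1, HTSeq 0.11.2, STAR 2.7.1a, Trimmomatic 0.39 and mm10 were used, without a stated role. Not given in the sources used here are the strand setting, the annotation release and how exons were split from introns. Symbols matched 55144 of 55471 and 18507 of 18513 genes.

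Pilo was compared with Mock by edgeR 4.0.16 in R 4.3.3 (quasi-likelihood, robust, TMM, filterByExpr with a minimum count of 10, Benjamini-Hochberg over all genes). SE is the coefficient's size over the square root of F. Introns were set against exons by the region by treatment interaction with library as a covariate. DESeq2 1.42.0, limma-voom (limma 3.58.1), RLE factors, other filters, left-out libraries and a replicate block were alternatives, and scaling introns by exonic library sizes was added after seeing the data. Fits were tested on simulated data. Replicates of a group differed beyond counting error, at a chi-square of 10.2 to 34.2 per degree of freedom.

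Titles share replicate numbers across groups, and deviations from group means correlated in every same-numbered pair (Pearson r 0.365, 0.363, 0.391 and 0.366 over 19176 genes), so the numbers were taken as pairs. Main fits have no block and so leave this pairing out, while the replicate block, an alternative, uses it. Members and gene lists were chosen with earlier results of these data known. Named were the 6 members, up to 4 genes of smallest exonic p per list, and the genes nearest in profile (mean count of at least 50). Any other gene was picked with its values known. A few genes under this rule are not reported here.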

Additional observations from a re-analysis of the deposited data

Results flagged for a closer look

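Over 36 groups of 4 libraries, formed from the exonic and intronic CPM and the intronic shares, 2 held a library far from the other 3, where chance gives about 1 in 20. Bdnf exonic CPM in Pilo replicate 1 was 46.6, above 28.5 to 29.2 CPM in the other Pilo libraries. The Ntrk2 intronic share in Mock replicate 4 was 21.9%, above 15.9% to 16.8% in the other Mock libraries. Without Pilo replicate 1 the exonic log2 fold change of Bdnf was 0.60 and its call held (edgeR adjusted p = 0.0210). The intronic share of Ntrk2 averaged 30.8% in Pilo and 17.6% in Mock with all libraries.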

How the results depend on the processing

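Of the 172 alternative values for counts of genes or members, 155 stayed within 1.5 times the main count. Members higher in exons numbered 2 under RLE size factors, DESeq2 or the replicate block, and 1 to 2 with 1 library left out. With the block 4572 genes were higher in exons, 2680 had a lower intronic than exonic change, and 2 members a higher one, a count of 1 to 2 with 1 library left out. The block also moved Ntrk2 in exons and Ntrk3 in introns past the test and ended no call of a member. With introns scaled by exonic library sizes, the median change of all genes was -0.25 in introns and -0.26 for introns against exons. Then 1114 genes were higher and 5173 lower in introns, with 1 member, Ntrk2, higher and 2, Ntf3 and Sort1, lower, and 406 genes had a higher and 5822 a lower intronic than exonic change, with 3 members lower, Bdnf, Ntf3 and Sort1. The intronic change of Ntrk3 was then -0.075. Sort1 in exons was -0.010 with the stricter filter and -0.011 in the second table. With 1 library left out, exonic changes ranged from -0.029 to 0.061 for Sort1, -0.022 to 0.22 for Ntf3, -0.24 to 0.015 for Sorcs2 and -0.67 to 0.0039 for Ntf5. The cause was not tested. Ngfr and Ntf5 rest on at most 24 and 15 exonic counts per library.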

Other observations

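Of 7 inhibitory neuron markers, cells that the sort is not meant to hold, 2 had a larger intronic than exonic change and 0 a smaller one, against 12.8% and 13.5% of all genes. Vip, a neuropeptide of interneurons, had an intronic log2 fold change of 2.03 (edgeR adjusted p = 0.00307) and an exonic one of 0.50 (adjusted p = 0.182), a difference of 1.55 (adjusted p = 0.00198). Sst, somatostatin, had 1.42 in introns (adjusted p = 0.000859) and 0.34 in exons (adjusted p = 0.0613), and the difference passed as well (adjusted p = 0.00567). Gad1 and Gad2, which make GABA, rose in exons by 0.46 and 0.43 (adjusted p = 0.0357 and 0.0333) and in introns by 0.67 and 0.60 (adjusted p = 0.0206 and 0.0103), and their differences of 0.21 and 0.20 did not pass (adjusted p = 0.194 and 0.365). The differences of Lhx6, Slc32a1 and Pvalb, at 0.18, -0.08 and -0.05, did not pass either (adjusted p = 0.724, 0.844 and 0.914). Of the 7 markers 2 were higher in exons and 4 in introns, against 15.6% and 19.6% of all genes. The first 4 genes were named after their values were seen.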
